A study of Mus musculus with 13 samples.

Results

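The 4 kinases of eIF2alpha and the partners of its phosphatase were followed through ER stress as 8 genes of the 22406 in the tables, chosen by symbol. The kinases are Eif2ak1 (HRI), Eif2ak2 (PKR), Eif2ak3 (PERK) and Eif2ak4 (GCN2). On the phosphatase side are Ppp1r15b (CReP) and the protein phosphatase 1 (PP1) catalytic subunits Ppp1ca, Ppp1cb and Ppp1cc. All 8 passed the filter on low values in both tables, a mean of at least 2 TPM (a level per length), which left 10432 genes in the MEF table and 10117 in the NIH3T3 table. The measurement was ribosome footprint profiling, the sequencing of the short mRNA stretches that ribosomes protect.

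Mouse embryonic fibroblasts (MEFs) with wild-type PERK (WT) or without it (PERK -/-) were left untreated or given 1 μM thapsigargin (Tg), an inhibitor of the ER calcium pump SERCA, over 1, 2, 5 or 8 h. NIH3T3 cells, an established mouse fibroblast line, were left untreated or given 0.2 μM Tg over 2 or 7 h. All 13 conditions had a single library (1 each), and Tg was the only stress agent given. The MEF medium also held non-essential amino acids and beta-mercaptoethanol, which are not listed for NIH3T3 cells. MEFs and NIH3T3 cells thus differed in medium and Tg dose too. The origin of both MEF lines, the part of the PERK gene that was deleted, and whether a line is 1 clone were not given in the sources used here, so genotype and cell line cannot be told apart.

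When eIF2alpha is phosphorylated, eIF2B can no longer recharge eIF2 with GTP, general initiation slows, and a few mRNAs such as Atf4 are translated better. PERK senses the ER lumen, PKR double-stranded RNA, GCN2 uncharged tRNA and HRI haem and mitochondrial stress. PP1 removes the phosphate when it is brought to eIF2alpha by CReP, which is made all the time, or by the stress-induced GADD34 (Ppp1r15a).

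Library totals ran from 2525029 to 14799515 expected counts, the read numbers that RSEM assigns to a gene. Levels of a gene across libraries are given as CPM, the expected counts divided by the library total and scaled alike in all libraries, a share of all footprints. A level is thus relative to the other genes, and fewer ribosomes on all mRNAs would not show. Brackets after a log2 change hold its 95% interval, which covers counting error only, since no condition had a second library and no p-value was computed. These intervals left out 0 for 50.8% to 72.9% of all expressed genes in the 15 comparisons below, so an interval off 0 does not set a gene apart. Neighbouring times give a rough scale: 0.0575% of expressed genes were at least 2-fold apart between WT 5 and 8 h, but 6.44% between PERK -/- 5 and 8 h. The 10 fibroblast markers summed to between 10550 and 25930 CPM. The markers of leukocytes, epithelium, endothelium and muscle each summed to at most 33.9 CPM. Adgre1, Myod1 and Myog were at 0 in every library, but Krt14 had 32.7 CPM and Des 12.45 CPM in NIH3T3 cells at 2 h. Single fibroblast markers differed between untreated lines. Pdgfra had 0.92 CPM in WT and 28.4 CPM in PERK -/- MEFs, and Col3a1 had 3.24 CPM in NIH3T3 cells and 260.3 CPM in WT MEFs.

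The coding sequences of Ppp1ca and Ppp1cc are alike enough to share footprints of 28 nt, and those of the kinases are not. No 28-nt window of the kinases, of Ppp1r15b or of Ppp1cb occurs in another member's coding sequence. Ppp1cb and Ppp1cc do share an identical run of 23 nt, and footprints from 22 nt were aligned, so the shortest could fit both. Ppp1ca and Ppp1cc share 17 windows, 1.88% of the 903 in Ppp1ca and 1.84% of the 924 in Ppp1cc, all in 1 identical run of 44 nt from coding position 841. The run is shown in capitals because reads within it cannot be told apart by sequence, with 6 nt on each side in GENCODE coding sequences of GRCm38.

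Ppp1ca: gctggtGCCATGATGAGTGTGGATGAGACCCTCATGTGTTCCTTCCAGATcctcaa
Ppp1cc: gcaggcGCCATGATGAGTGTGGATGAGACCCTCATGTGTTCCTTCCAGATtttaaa

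At the protein level the PP1 subunits are 89.4 to 90.3% identical in pairwise alignment, and the kinases 28.4 to 38.3%. Eif2ak3 has 2 annotated coding sequences, of 3342 and 456 nt, which share their first 427 nt and then part. The 18 nt on each side of that point are shown, with the part that differs in capitals, because a split of footprints between sequences of unequal length would move the gene's TPM.

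Eif2ak3 long: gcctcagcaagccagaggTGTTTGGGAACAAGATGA
Eif2ak3 short: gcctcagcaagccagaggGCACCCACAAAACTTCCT

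Few members moved 2-fold with Tg, and nothing is read from counts over 8 genes beside the shares of all expressed genes. A member was called when its CPM, with values under 4 CPM raised to 4, differed at least 2-fold. In WT MEFs, 0, 1, 0 and 1 of the 8 members were called at 1, 2, 5 and 8 h, where 6.98%, 9.78%, 9.86% and 10.6% of all expressed genes were called. In PERK -/- MEFs, 0, 1, 0 and 0 were called, against 3.61%, 5.75%, 7.99% and 5.6% of expressed genes. In NIH3T3 cells, 0 members were called at 2 h and 2 at 7 h, where 10.2% and 16.5% of expressed genes were called. The members called were Ppp1cc in WT MEFs at 2 and 8 h, Ppp1r15b in PERK -/- MEFs at 2 h, and Eif2ak2 and Eif2ak4 in NIH3T3 cells at 7 h, all of them lower with Tg. With TMM or DESeq2 factors Ppp1cc was called in WT MEFs at 5 h too, and Eif2ak2 at 8 h.

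**Figure D1:**
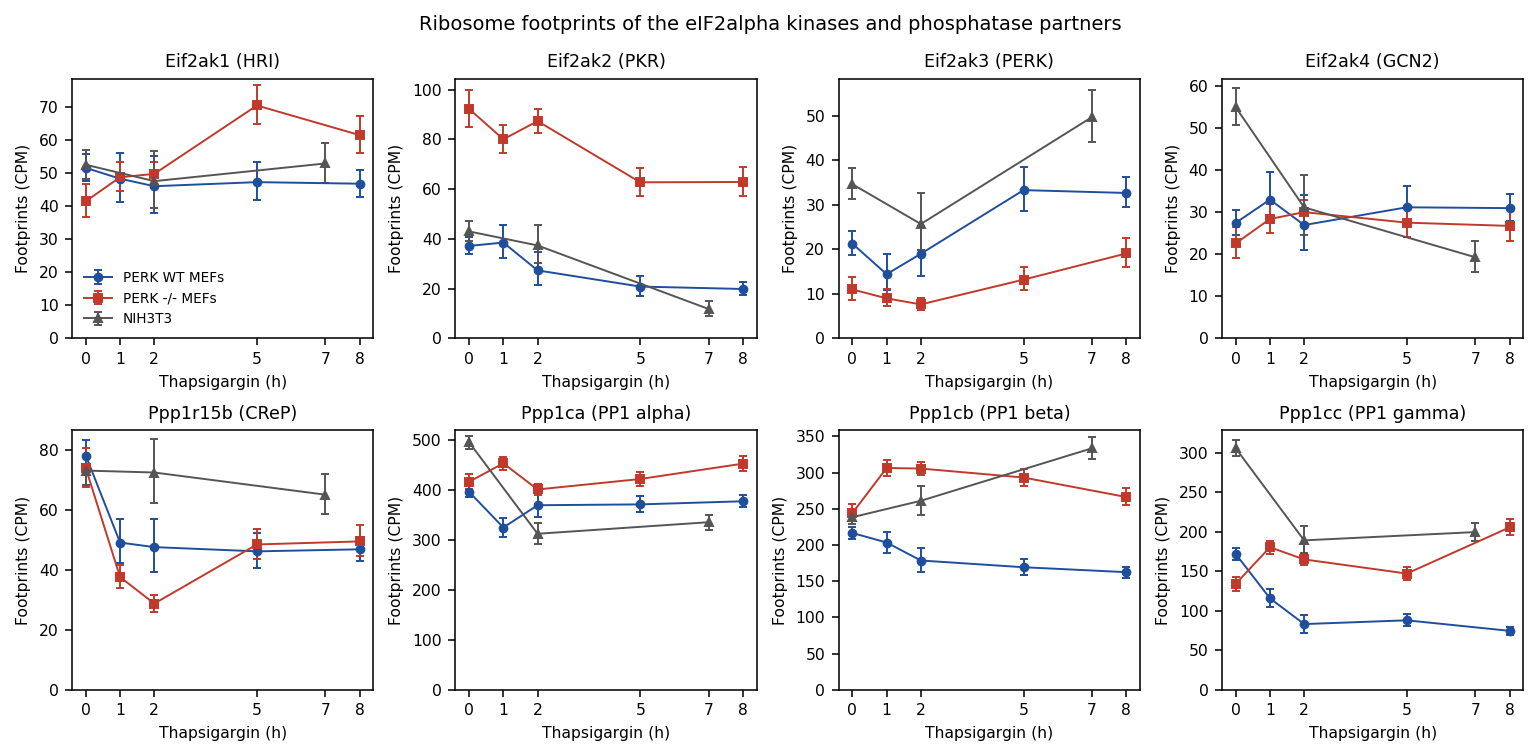
Footprints of the 8 members (y axis, CPM, from 0) against hours of Tg (x axis) in WT MEFs (blue circles), PERK -/- MEFs (red squares) and NIH3T3 cells (grey triangles). Each point is 1 library and each bar its 95% Poisson interval. Eif2ak2 sits between 62.7 and 92.2 CPM in PERK -/- MEFs and between 19.9 and 38.5 CPM in WT MEFs, and Ppp1cc goes from 172 down to 74.6 CPM in WT MEFs.

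Eif2ak3, the gene of the ER-resident kinase PERK, had a lower CPM in PERK -/- than in WT MEFs at every time. Its footprints did not vanish. Eif2ak3 (chromosome 6, 70844515 to 70905245, plus strand of GRCm38, 17 coding exons) had 254, 52, 48, 187 and 365 expected counts in WT MEFs at 0, 1, 2, 5 and 8 h. The libraries labelled PERK -/- had 74, 90, 113, 106 and 142 counts at the same times. In CPM, this was 21.3, 14.4, 19.0, 33.3 and 32.7 CPM in WT and 10.99, 8.99, 7.64, 13.2 and 19.1 CPM in PERK -/- MEFs. The PERK -/- level was below the WT level at each of the 5 times, although the highest PERK -/- library overlapped the lower WT libraries. Counts over a whole gene do not show where the footprints lay, so they check the deletion only in part. They also do not separate mRNA level from translation or show whether the kinase itself was made.

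Untreated, the log2 difference of Eif2ak3 between PERK -/- and WT MEFs was -0.95 (-1.35 to -0.57). With 1, 2, 5 and 8 h of Tg the difference was -0.68, -1.32, -1.34 and -0.78, and each interval left out 0. The median of all expressed genes was itself 0.13 higher in untreated PERK -/- MEFs, and relative to it the difference of Eif2ak3 was -1.08. Under Tg, an output of the PERK branch separated both genotypes more. Atf4, the transcription factor translated under eIF2alpha phosphorylation, changed by 4.06 (3.92 to 4.21) in log2 CPM in WT MEFs at 8 h and by 0.48 (0.27 to 0.70) in PERK -/- MEFs. Untreated, its log2 difference between PERK -/- and WT MEFs was 0.26 (0.04 to 0.48).

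At the last time of Tg the footprints of Eif2ak3 were above control in all 3 sets of cells. In WT MEFs the log2 change was -0.56 (-1.02 to -0.13) after 1 h, then 0.65 (0.37 to 0.93) after 5 h and 0.62 (0.38 to 0.86) after 8 h. PERK -/- MEFs had -0.29 (-0.75 to 0.17) at 1 h, -0.53 (-0.96 to -0.08) at 2 h, 0.26 (-0.18 to 0.71) at 5 h and 0.80 (0.38 to 1.22) at 8 h, from a control of only 74 counts. In NIH3T3 cells Eif2ak3 had 34.6, 25.7 and 49.7 CPM at 0, 2 and 7 h, a change of -0.43 (-0.83 to -0.05) and then 0.52 (0.30 to 0.75). In CPM, lower values thus came before higher ones in each set of cells, and none of these changes reached 2-fold. The PERK -/- minus WT difference of the changes included 0 at every time, with -0.38 (-0.89 to 0.12) at 5 h and 0.18 (-0.29 to 0.64) at 8 h.

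The TPM values of Eif2ak3 did not follow its counts. Eif2ak3 had 6.03, 8.49, 6.20, 13.98 and 15.7 TPM in WT MEFs and 11.2, 7.32, 5.21, 14.9 and 17.2 TPM in PERK -/- MEFs. Untreated, PERK -/- MEFs were thus higher by 0.89 in log2 TPM where they were lower by 0.95 in log2 CPM. The sign also differed at 5 h, with a log2 difference of 0.09 in TPM and -1.34 in CPM, and at 8 h, with 0.13 and -0.78. For a gene with a single coding sequence both units give the same ratio, up to the scale of the library.

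Counts per TPM give the coding length that RSEM used for a gene in a library, after scaling on genes with a single coding transcript. For Eif2ak3 this implied length was 3342, 1593, 2895, 2260 and 1972 nt in WT MEFs at 0, 1, 2, 5 and 8 h. It was 935, 1143, 1322, 824 and 1061 nt in PERK -/- MEFs, each below every WT library. In NIH3T3 cells it was 2790, 3283 and 1617 nt at 0, 2 and 7 h. The clipped coding sequences of the 2 annotated transcripts are 3282 and 396 nt long, and the implied lengths lay between these values or, in untreated WT MEFs and NIH3T3 cells at 2 h, at about the longer. Both sequences are from GENCODE, and which isoforms RSEM was given is not stated in the sources used here, so an assignment of footprints between them was not tested. The implied length rests on few counts in WT at 1 and 2 h, with 52 and 48.

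No other member behaved this way. The highest implied length was 4.06 times the lowest for Eif2ak3 in MEFs and 2.03 times in NIH3T3 cells, against at most 1.08 times for any of the other 7 members. In MEFs only 21 of 6678 genes reached a ratio of 2 (0.315%), and the median gene had 1.01. For that reason the levels of Eif2ak3 between libraries are given in counts here, and its TPM is not used to compare them.

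**Figure D2:**
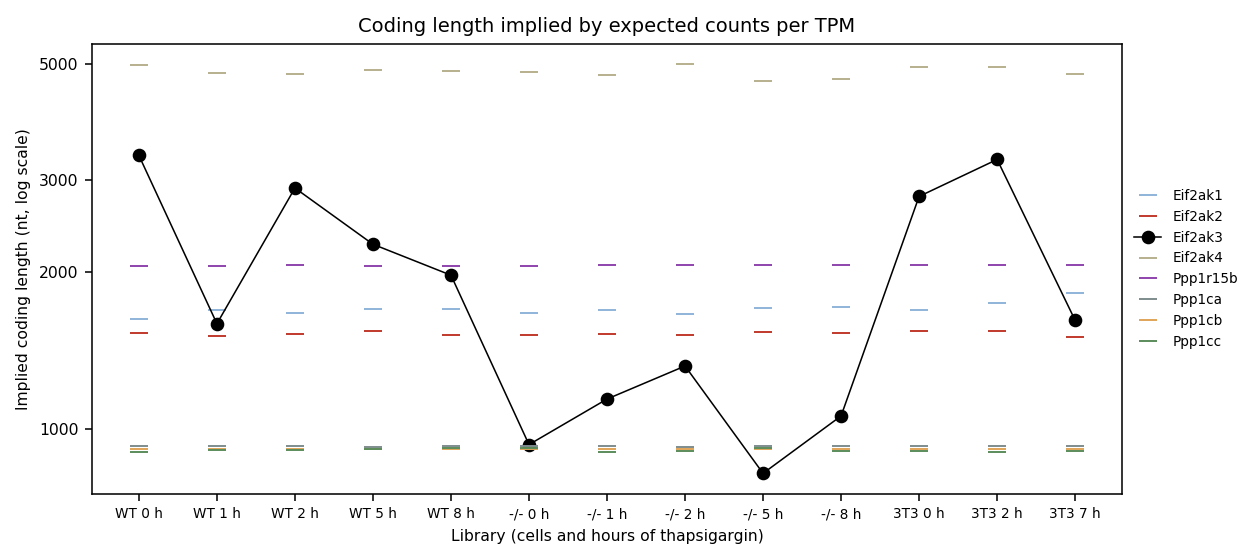
Coding length implied by expected counts per TPM (y axis, nt, log scale) in each of the 13 libraries (x axis) for the 8 members. Eif2ak3 (black points, joined within the plot for the eye) lies between 824 and 3342 nt, and the short dashes of the other members stay level across libraries.

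PKR, the kinase that responds to double-stranded RNA, was the member that separated the genotypes most in untreated cells. Eif2ak2 (chromosome 17, 78852564 to 78882573, minus strand, 15 coding exons) had 37.2, 38.5, 27.3, 20.8 and 19.9 CPM in WT MEFs at 0, 1, 2, 5 and 8 h. Its level was 92.2, 80.0, 87.3, 62.7 and 62.9 CPM in PERK -/- MEFs. The lowest PERK -/- library lay above the highest WT library. In NIH3T3 cells it had 43.0, 37.4 and 11.8 CPM at 0, 2 and 7 h.

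Of the 8 members, Eif2ak2 was the only 1 called between untreated PERK -/- and WT MEFs, where 8.45% of expressed genes were called. With TMM or DESeq2 factors in place of library totals, Eif2ak3 was called as well, for 2 members in all. The log2 difference of Eif2ak2 was 1.31 (1.13 to 1.49), and 1.19 relative to the median gene. At 1, 2, 5 and 8 h it was 1.05 (0.79 to 1.33), 1.68 (1.33 to 2.05), 1.59 (1.30 to 1.89) and 1.66 (1.43 to 1.90). The other 2 kinases that could stand in for PERK were not higher in the untreated PERK -/- library: Eif2ak1 differed by -0.31 (-0.52 to -0.11) and Eif2ak4 by -0.28 (-0.57 to -0.00070). At 1 h Eif2ak2 was again the only member called, against 9.65% of expressed genes. At 2 h and 5 h Eif2ak2 and Eif2ak3 were called, against 17.6% and 16.9%, and at 8 h Eif2ak2 and Ppp1cc, against 15.7%.

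**Figure D3:**
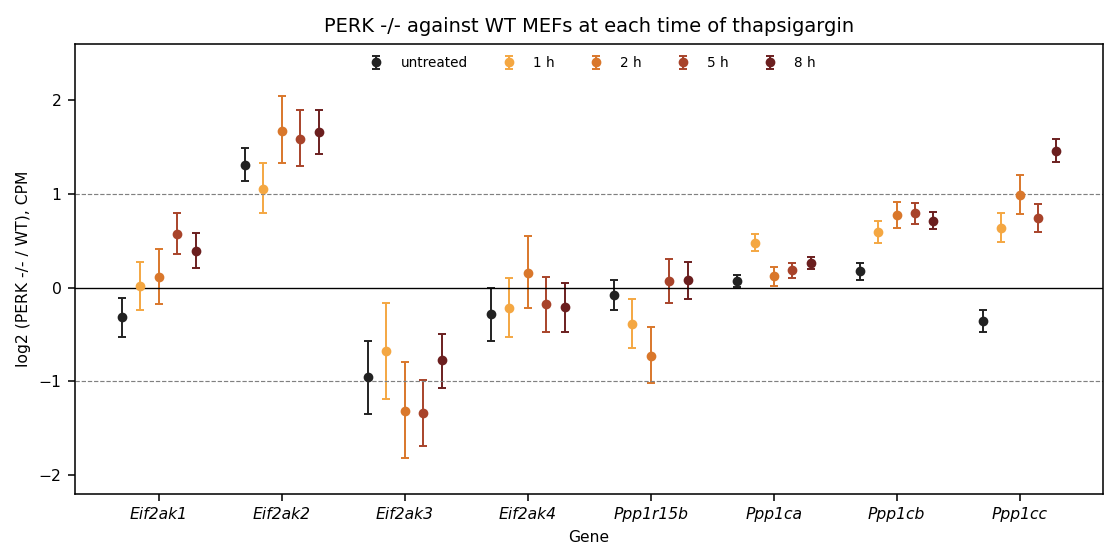
Log2 ratio of CPM between PERK -/- and WT MEFs (y axis) for each member (x axis), untreated and at 1, 2, 5 and 8 h of Tg (black to dark red). Bars are 95% counting intervals and dashed lines mark 2-fold. Eif2ak2 is above 1 at every time, Eif2ak3 is below 0 at every time, and Ppp1cc goes from -0.36 untreated to 1.46 at 8 h.

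Within each cell line, Eif2ak2 was lower late in Tg. With 1, 2, 5 and 8 h of Tg the log2 change in WT MEFs was 0.05 (-0.23 to 0.33), -0.44 (-0.83 to -0.07), -0.84 (-1.14 to -0.54) and -0.90 (-1.14 to -0.67). The changes in PERK -/- MEFs were -0.20, -0.08, -0.56 and -0.55, with an interval that left out 0 at 1, 5 and 8 h. In NIH3T3 cells at 7 h Eif2ak2 fell by 1.86 (2.25 to 1.49), from 478 to 68 counts. The PERK -/- minus WT difference of the change left out 0 only at 8 h, with 0.35 (0.06 to 0.64).

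Eif2ak2 is itself an interferon-stimulated gene, and a list of 23 such genes was set beside it after its level had been seen. Of the 17 that passed the filter, 15 were called higher and 0 lower in untreated PERK -/- MEFs, where 8.45% of all expressed genes were called in either direction, with a median log2 difference of 2.07 against 0.13 over all expressed genes. Not called were Irf1, with a log2 difference of 0.12 (-0.15 to 0.39), and Gbp2, with -2.01 (-3.54 to -0.78). Gbp2 had 6 counts in PERK -/- and 43 in WT MEFs, both under the floor of 4 CPM. Isg15, a ubiquitin-like modifier, had 73.3 CPM in PERK -/- and 4.69 CPM in WT MEFs. Bst2, which tethers virus particles, had 126.5 and 17.4 CPM, and Ddx58, the RNA sensor RIG-I, 83.3 and 21.3 CPM. The summed level of the 23 genes was 669 CPM in untreated PERK -/- MEFs, 344 to 555 CPM in the PERK -/- libraries with Tg, and 157 to 259 CPM in the 5 WT libraries. Between genotypes at 1 h of Tg, 1 of the 17 was called higher and 1 lower, against 9.65% of expressed genes, and at 8 h 13 were called higher and 0 lower, against 15.7%. In the PERK -/- libraries the sum was lowest at 1 h, where Eif2ak2 had 80.0 CPM, and highest untreated, where Eif2ak2 had 92.2 CPM. At 5 h the sum was 481 CPM and Eif2ak2 was lowest, with 62.7 CPM. Against control, WT MEFs had 5, 2, 1 and 2 of the 17 called higher at 1, 2, 5 and 8 h, and 0 lower. Of all expressed genes 6.98%, 9.78%, 9.86% and 10.6% were called in either direction. PERK -/- MEFs had 8, 9, 1 and 0 called lower at these times, and 0 higher, against 3.61%, 5.75%, 7.99% and 5.6%. The median log2 change at 8 h was 0.55 in WT and -0.38 in PERK -/- MEFs, against 0.10 and 0.07 over all expressed genes. The part of the interferon genes in the level of Eif2ak2 was not tested.

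The start of Eif2ak2 holds the letters of an interferon-stimulated response element, searched as GAAA, any 2 bases and GAAA on both strands in the RefSeq promoter windows of GRCm38.p6, from 250 bases before to 50 after the start. The match, in capitals, lies at chr17:78882545-78882554 on the minus strand, 19 bases into the transcript.

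Eif2ak2: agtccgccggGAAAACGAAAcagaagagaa

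It was found in 1131 of 32851 windows (3.44%), in 10 of the 19 genes of the interferon list that had a window, and in Eif2ak2 alone of the 6 members that had one. The C/EBP-ATF response element, searched as TGATGNAAN, and the ER stress response element, searched by its full spaced sequence, matched 3.95% and 0.119% of windows and none of the 6 members. A match describes letters in a window, and no binding was measured.

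GCN2, the kinase that senses uncharged tRNA, changed by less than 2-fold in MEFs. Eif2ak4 (chromosome 2, 118388618 to 118475234, plus strand, 39 coding exons) had 27.5, 33.0, 26.9, 31.2 and 30.95 CPM in WT MEFs at 0, 1, 2, 5 and 8 h. The PERK -/- libraries had 22.6 CPM untreated, 28.4, 27.5 and 26.7 CPM at 1, 5 and 8 h, and the most at 2 h, with 444 counts. The log2 change was 0.33 (0.04 to 0.62) at 1 h and 0.41 (0.14 to 0.69) at 2 h in PERK -/- MEFs, and the intervals of the other MEF changes included 0. In NIH3T3 cells it was lower with Tg, with 54.9, 31.1 and 19.3 CPM at 0, 2 and 7 h. The log2 change there was -0.82 (-1.17 to -0.48) at 2 h, and at 7 h Eif2ak4 fell by 1.51 (1.82 to 1.22).

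HRI, the haem-regulated kinase, was level in WT MEFs and NIH3T3 cells and above control in PERK -/- MEFs, most so at 5 and 8 h. Eif2ak1 (chromosome 5, 143817788 to 143904251, plus strand, 15 coding exons) had 51.5, 48.2, 45.9, 47.2 and 46.7 CPM in WT MEFs. PERK -/- MEFs had 41.4, 48.6, 49.7, 70.3 and 61.4 CPM, and in NIH3T3 cells 52.4, 47.5 and 52.8 CPM. The 2 late PERK -/- libraries were above all other MEF libraries. Their log2 change from control was 0.76 (0.55 to 0.98) at 5 h and 0.57 (0.35 to 0.79) at 8 h, where WT MEFs had -0.13 (-0.34 to 0.08) and -0.14 (-0.31 to 0.03). The difference of these changes was 0.89 (0.60 to 1.18) at 5 h and 0.71 (0.43 to 0.98) at 8 h. Since the PERK -/- control was the lowest MEF library, the direct difference between genotypes was smaller. It was 0.58 (0.36 to 0.79) at 5 h and 0.39 (0.21 to 0.58) at 8 h. After 1 and 2 h the PERK -/- change was 0.23 (0.02 to 0.45) and 0.26 (0.06 to 0.47).

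The 4 kinases together held between 119 and 137 CPM in the 5 WT MEF libraries and between 166 and 175 CPM in the 5 PERK -/- libraries. Leaving Eif2ak3 out, the WT sums ran from 97.5 to 120 CPM and the PERK -/- sums from 151 to 167 CPM. Eif2ak2 made up 27.1% of the kinase counts in untreated WT MEFs and 55.2% in untreated PERK -/- MEFs. With Tg its share went to 15.3% in WT at 8 h and 37.0% in PERK -/- MEFs at 8 h. Eif2ak3 held 15.5% of the kinase counts in untreated WT MEFs, 25.1% at 8 h, and 18.7% and 37.2% in NIH3T3 cells at 0 and 7 h. By TPM, a measure per length, Eif2ak2 held 35.8% in untreated WT and 59.6% in untreated PERK -/- MEFs, with the TPM of Eif2ak3, 6.03 and 11.2, in the totals.

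**Figure D4:**
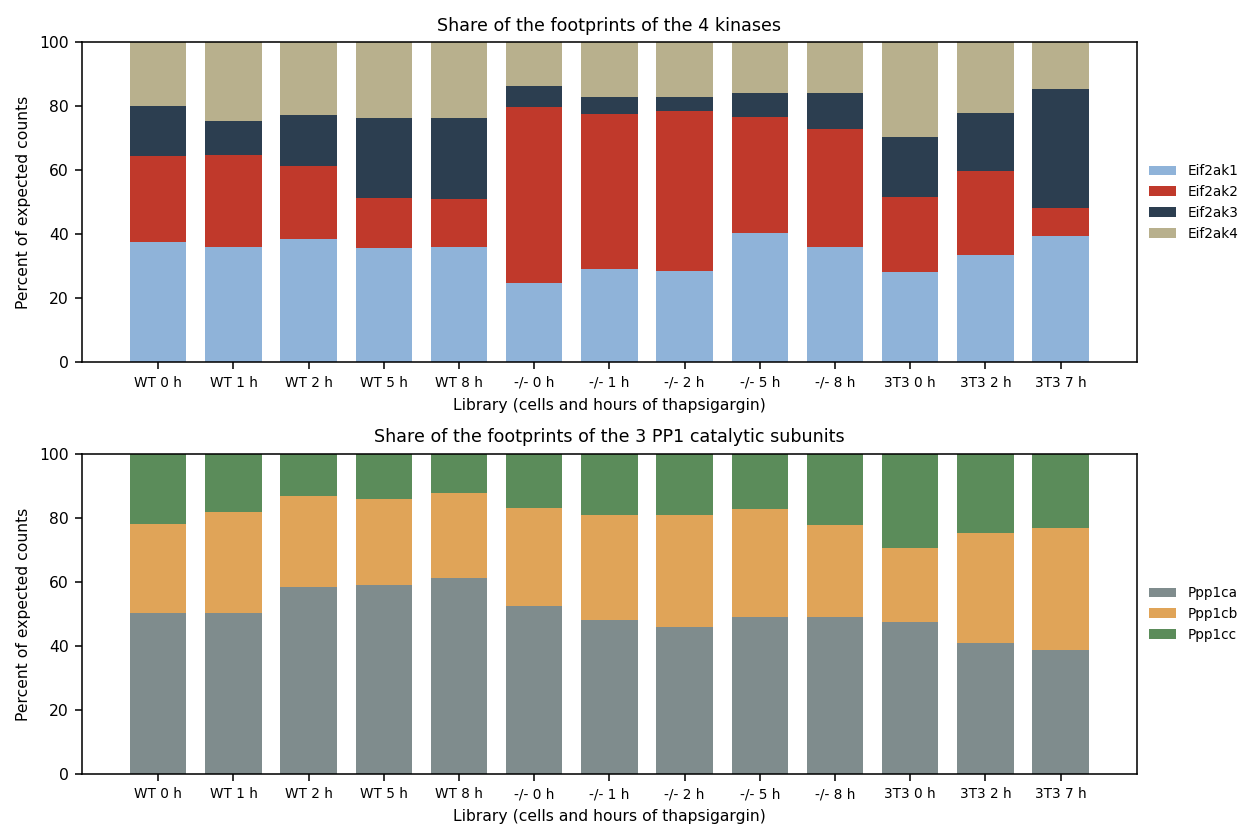
Stacked shares (y axis, percent of expected counts) of the 4 kinases (top) and of the 3 PP1 catalytic subunits (bottom) in each of the 13 libraries (x axis). Eif2ak2 (red) takes 55.2% of kinase counts in untreated PERK -/- MEFs against 27.1% in WT, and Ppp1cc (green) goes from 21.9% to 12.2% of PP1 counts in WT MEFs over 8 h.

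CReP, the constitutive partner that brings PP1 to eIF2alpha, was lower with Tg in MEFs of both genotypes and level in NIH3T3 cells. Ppp1r15b (chromosome 1, 133131143 to 133139783, plus strand, 2 coding exons) had 78.0, 49.0, 47.5, 46.1 and 46.8 CPM in WT MEFs at 0, 1, 2, 5 and 8 h. Libraries of PERK -/- MEFs had 73.8, 37.6, 28.7, 48.4 and 49.4 CPM. Both controls were above every Tg library of either genotype. In NIH3T3 cells it had 73.0, 72.4 and 65.0 CPM at 0, 2 and 7 h.

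The log2 change of Ppp1r15b in WT MEFs was -0.67 (-0.91 to -0.44) at 1 h and -0.74 (-0.89 to -0.58) at 8 h. PERK -/- MEFs had a change of -0.97 (-1.17 to -0.78) at 1 h. The 2 h library held the lowest level of all, where it fell by 1.36 (1.55 to 1.17), and after 5 and 8 h the change was -0.61 (-0.80 to -0.41) and -0.58 (-0.78 to -0.38). At 2 h the decrease was thus larger without PERK, by -0.65 (-0.98 to -0.32). The difference was -0.305 (-0.607 to -0.0031) at 1 h, with an interval that ends close to 0. With TMM or DESeq2 factors the differences at 1 and 2 h were smaller, and that at 1 h lay within counting error of 0. At 5 and 8 h it was 0.15 (-0.13 to 0.43) and 0.16 (-0.09 to 0.41). In NIH3T3 cells the change was -0.01 (-0.25 to 0.22) at 2 h and -0.17 (-0.35 to 0.01) at 7 h.

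GADD34, the inducible counterpart, rose in WT MEFs and NIH3T3 cells and was not called in PERK -/- MEFs at any time. Ppp1r15a had 14.3, 203, 201, 224 and 239.9 CPM in WT MEFs and 9.80, 12.7, 8.78, 13.1 and 13.0 CPM in PERK -/- MEFs. In log2 this was a rise of 3.83 (3.58 to 4.07) in WT at 1 h. In NIH3T3 cells it had 24.4, 195.7 and 262 CPM. For Atf4, the factor upstream of GADD34, the log2 difference of PERK -/- from WT MEFs was -4.27 at 1 h. Per length, Ppp1r15b was 5.13 times Ppp1r15a in untreated WT MEFs, and Ppp1r15a was 4.40 times Ppp1r15b after 1 h and 5.45 times after 8 h. Without PERK, Ppp1r15b stayed the higher of both, 7.07 times in the control and 2.78 to 3.57 times with Tg. In NIH3T3 cells the order turned from 2.82 times in favour of Ppp1r15b to 4.28 times in favour of Ppp1r15a at 7 h.

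**Figure D5:**
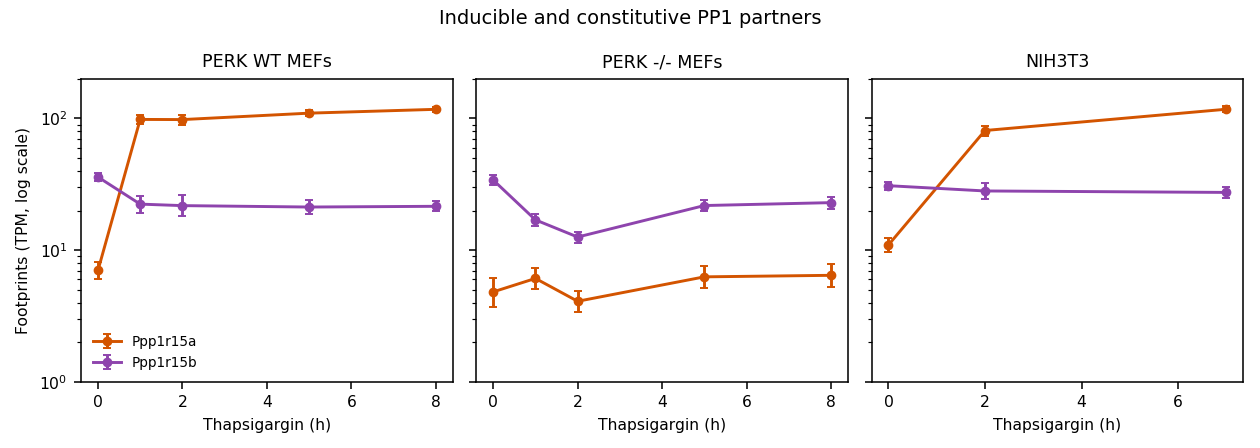
Footprints per length (y axis, TPM, log scale) of Ppp1r15a (orange) and Ppp1r15b (purple) against hours of Tg (x axis) in WT MEFs, PERK -/- MEFs and NIH3T3 cells. Points are single libraries and bars 95% Poisson intervals. The lines cross in WT MEFs and NIH3T3 cells, and in PERK -/- MEFs Ppp1r15b stays above.

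Of the PP1 catalytic subunits, the gamma subunit moved most. Ppp1cc (chromosome 5, 122158278 to 122175273, plus strand, 8 coding exons) had 172, 116, 83.2, 87.9 and 74.6 CPM in WT MEFs at 0, 1, 2, 5 and 8 h. The PERK -/- libraries had 134, 180.4, 165, 147 and 205.5 CPM, and in NIH3T3 cells 305.6, 189 and 199.6 CPM. The WT and NIH3T3 controls were above their Tg libraries, and the PERK -/- control was below its own.

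In WT MEFs Ppp1cc changed by -0.57 (-0.72 to -0.42) after 1 h and -0.97 (-1.11 to -0.82) after 5 h, and it fell by 1.05 (1.26 to 0.84) at 2 h and by 1.204 (1.32 to 1.09) at 8 h. In PERK -/- MEFs the log2 changes were 0.43 (0.31 to 0.54), 0.30 (0.19 to 0.41), 0.13 (0.01 to 0.26) and 0.61 (0.49 to 0.73). Between the genotypes, the PERK -/- minus WT difference of the changes was 1.00 (0.81 to 1.19), 1.35 (1.11 to 1.58), 1.10 (0.91 to 1.29) and 1.82 (1.65 to 1.98). In NIH3T3 cells Ppp1cc changed by -0.69 (-0.83 to -0.56) at 2 h and -0.61 (-0.71 to -0.52) at 7 h.

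The beta subunit, which forms myosin phosphatase, had the same contrast at a smaller size in MEFs and the opposite sign in NIH3T3 cells. Ppp1cb (chromosome 5, 32458843 to 32517433, plus strand, 8 coding exons) had 217, 203, 179, 169 and 162.5 CPM in WT and 244, 306, 306, 293 and 266 CPM in PERK -/- MEFs. At 8 h the log2 change was -0.41 (-0.50 to -0.33) in WT MEFs against 0.12 (0.03 to 0.22) in PERK -/- MEFs, and the latter was 0.06 relative to the median gene. In NIH3T3 cells it had 238, 261 and 334 CPM, a change of 0.13 (0.01 to 0.25) at 2 h and 0.48 (0.40 to 0.57) at 7 h. The latter was the only late change above 0 of a catalytic subunit in cells with intact PERK.

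The alpha subunit, the most abundant of the members per length in MEFs, changed least of the catalytic subunits in WT MEFs at 5 and 8 h. Ppp1ca (chromosome 19, 4192065 to 4195420, plus strand, 7 coding exons) had 395, 324, 369, 370.4 and 377 CPM in WT MEFs. PERK -/- MEFs had 416, 452, 400.2, 421 and 452 CPM. The WT library at 1 h was the lowest, with a log2 change of -0.29 (-0.38 to -0.19), and at 8 h it was -0.07 (-0.13 to -0.01). In NIH3T3 cells Ppp1ca had 494, 312 and 335 CPM, a change of -0.67 (-0.77 to -0.56) at 2 h and -0.56 (-0.64 to -0.49) at 7 h.

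The makeup of the PP1 footprints shifted accordingly. Ppp1cc went from 21.9% of the counts of the 3 subunits to 12.2% in WT MEFs over 8 h, and from 16.9% to 22.3% in PERK -/- MEFs. Ppp1ca went from 50.4% to 61.4% in WT MEFs. In NIH3T3 cells Ppp1cb went from 23.0% to 38.4% over 7 h, while Ppp1ca and Ppp1cc made up less. Summed, the 3 subunits held between 614 and 784 CPM in WT MEFs, with the control highest, and between 794 and 939 CPM in PERK -/- MEFs, with the control lowest.

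Other parts of the pathway were read from lists chosen by function. Of 9 genes for subunits of eIF2 and eIF2B and the GTPase-activating factor Eif5, all expressed, none was called in MEFs at any time or between genotypes, and 1 of 9 in NIH3T3 cells at 7 h, the eIF2B subunit Eif2b3, which was higher. With 3.61% to 17.6% of all expressed genes called in the MEF comparisons and 16.5% in NIH3T3 cells at 7 h, nothing is read from counts over 9 genes. Their median log2 change was 0.14 in WT and -0.10 in PERK -/- MEFs at 8 h, where the medians of all expressed genes were 0.10 and 0.07. In PERK -/- MEFs it was 0.34, 0.46 and -0.06 at 1, 2 and 5 h, against -0.08, -0.11 and 0.0013. Between untreated PERK -/- and WT MEFs the median difference was -0.29, against 0.13. By the rule for the largest changes in WT MEFs at 8 h, the eIF2B subunit Eif2b4 had 40.2 CPM in control and 67.5 CPM at 8 h, a log2 change of 0.75 (0.58 to 0.92). The substrate of the kinases itself, eIF2alpha (Eif2s1), changed by -0.53 (-0.60 to -0.46), and eIF2gamma (Eif2s3x) by -0.61 (-0.68 to -0.55). In NIH3T3 cells at 7 h these 2 genes changed by 0.09 (0.02 to 0.17) and -0.05 (-0.12 to 0.03). In PERK -/- MEFs Eif2s1 had 0.72 (0.64 to 0.81) at 2 h and -0.44 (-0.55 to -0.33) at 8 h. Untreated, its log2 difference between PERK -/- and WT MEFs was -0.53 (-0.62 to -0.45).

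Among 11 measured regulators of the kinases, 1 was called higher and 0 lower in WT MEFs at 8 h, near the 10.6% of all expressed genes. It was Hspa5, the chaperone BiP that holds PERK inactive, with 2760 CPM in control and 14560 CPM at 8 h, a rise of 2.40 in log2. It was also, in PERK -/- MEFs, the only 1 of the 11 called at 8 h, with a rise of 1.40, where 5.6% of expressed genes were called. Dnajc3 (p58IPK), an ER co-chaperone described as an inhibitor of PERK and PKR, changed by 0.95 (0.86 to 1.05) in WT MEFs against 0.81 (0.71 to 0.92) in PERK -/- MEFs at 8 h, and rose by 1.48 in NIH3T3 cells at 7 h. Adar, which edits double-stranded RNA, the ligand of PKR, changed by 0.93 (0.73 to 1.12) in WT MEFs against -0.39 (-0.64 to -0.13) in PERK -/- MEFs at 8 h. Impact, an inhibitor of GCN2 activation, was called lower in PERK -/- than in WT MEFs at 1, 2 and 5 h. At these times 9.65%, 17.6% and 16.9% of expressed genes were called. Impact was lower without Tg too, with 35.3 CPM in PERK -/- and 62.0 CPM in WT MEFs, short of a call.

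Among 17 genes for other proteins that bind PP1, 3 were called higher (Ppp1r15a among them) and 2 lower in WT MEFs at 8 h, against 10.6% of all expressed genes. None was called in PERK -/- MEFs at 2, 5 or 8 h, against 5.75%, 7.99% and 5.6%. In NIH3T3 cells at 7 h, 1 of 16 was called higher and 2 lower, near the 16.5% of expressed genes. Ppp1r2, an inhibitor of PP1, fell by 1.33 in log2 in WT MEFs at 8 h, from 85.1 to 33.8 CPM, and changed by -0.46 (-0.63 to -0.30) in PERK -/- MEFs. It also fell by 1.48 in NIH3T3 cells at 7 h. Ppp1r12c, a myosin phosphatase targeting subunit, rose by 1.18 in WT MEFs, from 11.9 to 26.8 CPM.

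The genes whose levels were most like each member over the 10 MEF libraries were ranked by Pearson's r of log2(CPM + 1) among 6110 genes with at least 50 counts in every library. For Eif2ak2 they were Ctnnal1 (0.99) and Cttn (0.98), and for Eif2ak3 Steap1 (0.99) and Rrbp1 (0.97), the ribosome-binding protein of the ER. For Eif2ak1 they were Lin9 (0.93) and Cnih4 (0.92), and for Eif2ak4 Prdx3 (0.86) and Ddx55 (0.84). For Ppp1r15b they were Ptprs (0.92) and Tmem132a (0.87), and for Ppp1ca Chchd3 (0.93) and Tmeff2 (0.92). For Ppp1cb they were Capza1 (0.99) and Psmb1 (0.99), and for Ppp1cc Atad1 (0.98) and Smek2 (0.97), a regulatory subunit of another phosphatase, PP4. Among the members, Eif2ak2 and Eif2ak3 ran opposite to each other with an r of -0.90, and Eif2ak2 and Ppp1cb together with 0.93. All these values share the library totals and the 5 libraries of each genotype, and they are a description.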

How the data were processed

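Ribosome footprints of 13 libraries were read from 2 tables. The authors filtered rRNA and tRNA reads with STAR, aligned footprints of 22 to 34 nt with Bowtie2 to mm10 RefSeq coding sequences clipped by 30 nt at each end, and ran RSEM (versions not given in the sources used here). The expected counts were deposited as whole numbers per gene without scaling, and the TPM values were deposited as scaled by RSEM within a library.

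From these, CPM were expected counts over the library total, scaled to counts per 1000000. Intervals were exact conditional (Clopper-Pearson) for ratios, exact Poisson for levels, Wald for differences of changes and exact binomial for shares, at 95% confidence. They cover counting error only. Genes with a mean of at least 2 TPM in a table were used, and values under 4 CPM were raised to 4 for calls. Calls and intervals were run on simulated Poisson counts. These hold no variation between libraries, so that run cannot show whether the intervals cover it.

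The members and lists were chosen with earlier results of these data known, and the interferon list after Eif2ak2 had been seen. Named were the members, Ppp1r15a, Atf4, Dnajc3, Hspa5, in each list the 3 genes with the largest WT change at 8 h and at least 100 counts in both libraries, and the 2 genes most like each member. Eif2b3, Impact, the interferon genes and the single cell type markers were named after their values were seen. The regulator Dele1 was not matched by symbol. Coordinates and coding sequences came from GENCODE vM21 of GRCm38, the assembly of mm10, and 6 of 8 members matched a RefSeq promoter window.

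Alternatives were TMM factors (edgeR 4.0.16), DESeq2 1.42.0 size factors, TPM with a floor of 4, no floor, a pseudocount of 1 CPM, a mean TPM of at least 5, no filter, thinned counts, shares by TPM, and Spearman's rho. Tools were R 4.3.3, Python 3.11.15, scipy 1.17.1, numpy 2.4.6, pandas 2.3.3, Biopython 1.88 and matplotlib 3.10.9.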

Additional observations from a re-analysis of the deposited data

Results flagged for a closer look

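The PP1 catalytic subunits changed in opposite directions in WT and PERK -/- MEFs at most times of Tg, with both counting intervals off 0. Ppp1cb at 1 h and Ppp1ca at 2 and 5 h did not meet this rule. Against control, such intervals left out 0 for 50.8% to 69.4% of all expressed genes in MEFs. The share of all expressed genes that met the rule was not computed, so the rule does not set these genes apart. With 1 library per condition the differences below were not tested against replicates. For Ppp1cc the log2 change in PERK -/- minus that in WT was 1.0, 1.35, 1.1 and 1.82 after 1, 2, 5 and 8 h. For Ppp1cb it was 0.60, 0.62 and 0.54 after 2, 5 and 8 h. For Ppp1ca it was 0.41 after 1 h, from -0.29 in WT and 0.12 in PERK -/- MEFs, and 0.19 after 8 h, from -0.07 and 0.12. At 8 h the PERK -/- changes of Ppp1ca and Ppp1cb were 0.05 and 0.06 relative to the median gene and 0.03 and 0.04 with TMM factors, less than the distance from each change to the end of its interval. The same holds for the change of Ppp1cc at 5 h, which was 0.13 (0.01 to 0.26) and 0.11 with TMM factors. For these 3 changes the opposite direction is thus lost within counting error under another scaling. The untreated libraries also differed, with Ppp1cc lower (-0.36) and Ppp1cb higher (0.17) in PERK -/- MEFs.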

How the results depend on the processing

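No paired analysis was possible because each condition was 1 library without a replicate number, and for the same reason no replicate could be left out. The counts of members called were within 1.5 times under no floor, a pseudocount of 1 CPM, a mean TPM of at least 5 and no filter, in all 15 comparisons. TMM and DESeq2 factors each gave 1 member in WT at 5 h (Ppp1cc), 2 in WT at 8 h (Eif2ak2 added) and 2 between untreated genotypes (Eif2ak3 added). TPM gave 1 in WT at 5 h and 2 at 8 h (Eif2ak3 added), 1 in PERK -/- MEFs at 1 h and 2 at 2 h, and 1 (Eif2ak2 alone) between genotypes at 2 and at 5 h. Thinned counts gave 1 in PERK -/- MEFs at 1 h and 2 between genotypes at 1 h. The log2 difference of Eif2ak3 between genotypes turned with TPM from -0.95 to 0.89 untreated, from -1.34 to 0.089 at 5 h and from -0.78 to 0.13 at 8 h. Alternatives for the differences of changes were added after seeing the data. TMM gave 0.61 for Ppp1ca, 0.62 for Ppp1cb and 1.19 for Ppp1cc at 1 h, and 0.28 for Ppp1ca and 0.83 for Ppp1cb at 2 h. DESeq2 factors gave 0.53 for Ppp1ca at 1 h and 0.23 and 0.78 for Ppp1ca and Ppp1cb at 2 h. TPM gave -1.10, -1.14 and -0.76 for Eif2ak3 at 1, 2 and 8 h. By TPM the share of Eif2ak2 among the kinases was 35.8% in untreated WT and 59.6% in untreated PERK -/- MEFs. For all expressed genes, no floor raised the counts by over 1.5 times in 6 comparisons, to 1171 in WT at 1 h, to 741, 981, 1294 and 965 in PERK -/- MEFs at 1, 2, 5 and 8 h, and to 1334 between untreated genotypes, and thinned counts gave 588 in PERK -/- MEFs at 1 h. Spearman's rho left 14 of 16 likeness values within 0.1. Depth limits Eif2ak3 most, with 48 counts in WT at 2 h.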
